A study of Mus musculus with 18 samples.

Results

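Long intergenic non-coding RNAs (lincRNAs) are transcripts from loci that lie apart from protein-coding genes in the annotation and carry no long reading frame. The lincRNAs described here were the genes with the lincRNA type in GENCODE M21 whose mean CPM (counts scaled to the count sum of the library) was at least 5 over the 6 libraries of 1 or more of 3 sorted populations of the mouse mammary gland. The rule left 83 of 5009 lincRNA genes (1.66%), from tables of 52636 gene identifiers. The members were chosen by their level in these same libraries, so their levels and population differences are given as a description, and counts over the list are read only beside the same count over all genes.

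The libraries came from untreated nulliparous MMTV-Cre mice, 12 weeks of age, as 6 numbered samples with 1 library of each population; the labels do not say how many animals made a sample. The MMTV promoter drives Cre in mammary epithelium among other tissues, and all 18 libraries carry it, so no library without Cre was compared. Hormone-sensing luminal cells (HSL, CD49f-lo/CD61-) respond to oestrogen and progesterone. Alveolar progenitors (AP, CD49f-lo/CD61+) are the luminal cells that can give rise to the milk-secreting alveoli. Basal cells (CD49f-hi/CD61+) form the outer contractile layer of the duct. The 3 comparisons, HSL against AP, HSL against basal and AP against basal, share libraries and are not independent of each other.

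LincRNAs act in several ways. Some build nuclear bodies, some bind proteins or microRNAs, some are the precursor of a microRNA or a small nucleolar RNA, and for some the act of transcription affects the gene beside them. Many are known for levels that are low and restricted to a cell type. In the mammary gland Neat1, a nuclear scaffold, and Pinc, a transcript induced in pregnancy, are known from mouse studies.

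Total counts were 26516293 to 52404937 in HSL, 37391691 to 62505465 in AP and 29899462 to 91095830 in basal libraries. The 83 lincRNAs took 0.233 to 0.658% of the counts of a library. Marker genes went with the labels: Foxa1 and Esr1 were higher in every HSL library than in any other, Kit and Elf5 in every AP library, and Krt14 and Trp63 in every basal library. Genes of other cell types were measured too. Summed over 7 leukocyte genes, all of them in the tables and none at 0 throughout, the median was 54.1 CPM in HSL, 94.5 CPM in AP and 528 CPM in basal libraries, and over 6 endothelial genes, likewise, 21 CPM, 31.7 CPM and 129 CPM. Sums over 6 fibroblast genes were 40.3 to 111 CPM in HSL, 614 to 1575 CPM in AP and 691 to 1097 CPM in basal libraries, so HSL did not overlap the others. Median sums were 117 CPM in HSL, 520 CPM in AP and 199 CPM in basal libraries over 4 Schwann cell genes, 29.6, 43.2 and 171 CPM over 5 adipocyte genes, and 20.6, 18.2 and 147 CPM over 6 erythroid genes, of which Alas2 was at 0. Over 5 pericyte genes they were 104, 122 and 94.6 CPM. The 3 libraries of sample 1 differed from the others for many of the lincRNAs, as given below.

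Of the 83 lincRNAs, 27 reached 5 CPM in each of the 3 populations, 17 in 2 of them and 39 in 1. The 39 comprised 11 in HSL, 12 in AP and 16 in basal cells. In these bulk samples, fewer cells of a type and less RNA per cell cannot be told apart. From here on, levels are CPM scaled with TMM factors, as mean ± SD over 6 libraries unless stated. By that measure the highest mean was in HSL for 26 members, in AP for 20 and in basal for 37, and 8 members exceeded 100 CPM in their highest population, 45 lay between 10 and 100 CPM and 30 were under 10 CPM, with a median of 12.3 CPM. Just inside the threshold were 9330136K24Rik at 5.27 CPM in HSL and 2700038G22Rik at 5.02 CPM in basal libraries, and just outside it Gm32585 at 4.94 CPM and 2810429I04Rik at 4.81 CPM in basal libraries, by the unscaled CPM of the rule. Little is annotated about most of them: 37 carry a Gm number and 27 a Rik clone name.

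The sequences shown first are of members that differed between populations, chosen to show what the transcripts are. The basal lincRNA 4631405K08Rik, which RefSeq names Mir205hg, is the host transcript of miR-205, a microRNA of basal epithelial layers known to hold back the mesenchymal factors Zeb1 and Zeb2. Both mature arms lie inside its span (GRCm38.p6, chr1, minus strand; chr1:193507503-193507524 for the 5p arm and chr1:193507467-193507488 for the 3p arm). The RefSeq sequences follow, with the seed, bases 2 to 8, in capitals.
mmu-miR-205-5p: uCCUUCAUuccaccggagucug
mmu-miR-205-3p: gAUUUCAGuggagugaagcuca
The 2 seeds, CCUUCAU and AUUUCAG, are different. The Mir205 gene, whose span lies wholly within the host, was listed at 0 in all libraries, and the values below are those of the host.

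RefSeq promoter windows of GRCm38.p6, 250 bases before to 50 after a gene start, matched 36 of the 83 members. One member raised in each population is shown, followed by Pinc, which was low in HSL. Tbx3os2, highest in HSL, has its window at chr5:119691169-119691468, Gm17619, highest in AP, at chr2:170194004-170194303, 4631405K08Rik at chr1:193510161-193510460 and Pinc at chr1:73407520-73407819, each on the minus strand. Capitals mark matches to 9 motifs.
Tbx3os2: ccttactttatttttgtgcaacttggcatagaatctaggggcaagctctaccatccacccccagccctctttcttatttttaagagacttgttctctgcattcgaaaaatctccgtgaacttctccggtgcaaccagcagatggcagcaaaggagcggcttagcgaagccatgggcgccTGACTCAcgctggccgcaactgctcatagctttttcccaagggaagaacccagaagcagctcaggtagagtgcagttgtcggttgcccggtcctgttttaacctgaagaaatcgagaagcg
Gm17619: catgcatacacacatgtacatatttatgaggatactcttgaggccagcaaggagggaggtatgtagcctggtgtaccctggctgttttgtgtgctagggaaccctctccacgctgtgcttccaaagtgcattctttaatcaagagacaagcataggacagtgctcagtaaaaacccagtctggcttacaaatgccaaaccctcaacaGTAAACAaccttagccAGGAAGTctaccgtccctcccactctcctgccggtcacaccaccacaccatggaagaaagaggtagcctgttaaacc
4631405K08Rik: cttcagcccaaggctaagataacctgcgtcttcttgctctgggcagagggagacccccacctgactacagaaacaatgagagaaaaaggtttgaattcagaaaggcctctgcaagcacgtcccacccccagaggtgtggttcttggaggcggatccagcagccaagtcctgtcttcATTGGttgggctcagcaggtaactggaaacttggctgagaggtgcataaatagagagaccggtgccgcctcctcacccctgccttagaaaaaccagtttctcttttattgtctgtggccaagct
Pinc: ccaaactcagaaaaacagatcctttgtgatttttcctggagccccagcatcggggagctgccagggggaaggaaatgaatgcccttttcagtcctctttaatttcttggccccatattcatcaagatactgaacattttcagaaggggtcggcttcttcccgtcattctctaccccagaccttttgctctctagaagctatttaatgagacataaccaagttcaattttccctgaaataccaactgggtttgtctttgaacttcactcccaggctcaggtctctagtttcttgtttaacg
Tbx3os2 held 1 match to the AP-1 motif TGANTCA, found in 8.33% of the 36 windows and 7.93% of 27025 RefSeq promoters. Gm17619 held 1 match to the forkhead motif TGTTTAC, in 2.78% and 3.55%, and 1 to the ETS motif AGGAAGT, in 13.9% and 9.57%. These 2 matches did not overlap. 4631405K08Rik held 1 CCAAT, a motif of 50% of the windows and 37.9% of all promoters, and Pinc held none of the 9. Both strands were searched, and the others were the ETS motif CCGGAAG (11.1% and 9.12%), the TEAD motif GGAATG (22.2% and 14.6%), the CRE motif TGACGT (11.1% and 7.64%), the E-box CACGTG (5.56% and 7.24%) and TATAAA (5.56% and 14.2%). A match is a string of letters in a window and no measurement of binding.

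Gm26917 was the most abundant lincRNA of the 83, at 1700 ± 901 CPM in HSL, 1804 ± 1082 CPM in AP and 2581 ± 920 CPM in basal libraries. Its locus (ENSMUSG00000097971, chr17:39843013-39846341, 1 exon) is known to hold a copy of ribosomal RNA sequence, so its reads cannot be told apart from ribosomal RNA. In every population the libraries of samples 1, 2 and 3 were above those of samples 4, 5 and 6: from 1869 to 2829 CPM against 616 to 1149 CPM in HSL, from 2205 to 3525 CPM against 752 to 1067 CPM in AP, and from 2932 to 3909 CPM against 1528 to 2237 CPM in basal libraries. Gm26561 and Gm48099 showed the same order of samples in each population. No population difference was called for any of these 3 in the fit without pairing. With the sample number as replicate block, AP was lower than basal for Gm26917 (-0.66, adjusted p = 0.00631), Gm26561 (-1.21, 0.000657) and Gm48099 (-1.06, 0.000705), each in 6 of 6 samples. HSL was then also lower than basal for Gm26917 (-0.72, adjusted p = 0.00266), and higher than AP for Gm26561 (0.75, 0.0146) and Gm48099 (0.76, 0.00748). Without Gm26917 the members took 0.258 to 0.318% of counts in HSL, 0.147 to 0.285% in AP and 0.181 to 0.257% in basal libraries.

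Malat1 and Neat1, neighbours on chromosome 19 with 22035 bases between them, had different patterns. Malat1, a nuclear speckle RNA, stood at 544 ± 289 CPM in HSL, 465 ± 270 CPM in AP and 618 ± 240 CPM in basal libraries, and none of its 3 comparisons was called (edgeR quasi-likelihood test, adjusted p = 0.676, 0.704 and 0.416 for HSL against AP, HSL against basal and AP against basal). Its libraries ran from 203 to 1049 CPM in HSL, from 264 to 913 CPM in AP and from 277 to 1004 CPM in basal, so the groups overlapped. Neat1, the scaffold of paraspeckles, had a lowest, median and highest value of 27, 64.4 and 98.8 CPM in HSL, 37.1, 137 and 270 CPM in AP and 15.9, 34.2 and 49 CPM in basal libraries. AP was above basal by a log2 fold change of 2.29 ± 0.41 (SE, adjusted p = 0.000145), with the AP library of sample 1 inside the basal range. HSL was lower than AP by -1.24 ± 0.39 (adjusted p = 0.0173) and above basal by 1.05 ± 0.39 (adjusted p = 0.0277), and neither call held in every leave-out (adjusted p = 0.0891 for HSL against AP without sample 5 and 0.135 for HSL against basal without sample 2). Per kilobase of exon Malat1 had 77.8 CPM in HSL, 66.6 CPM in AP and 88.5 CPM in basal libraries, and Neat1 3.23, 7.62 and 1.56 CPM.

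Across the 83 members 48 were called in HSL against AP at an adjusted p under 0.05 (57.8%, against 39.9% of the 16471 genes tested), 19 higher and 29 lower in HSL (all genes 19.8% and 20.1%). With total-count scaling they were 14 and 32, where 35.6% of all called genes were higher in HSL, in place of 49.6%. Without sample 4, 5 or 6, 11, 10 and 11 members were higher in HSL. Calls over all genes were then 5381, 5336 and 5207, in place of 6571, with 48.1%, 48.4% and 44.4% of them higher. In HSL against basal 58 were called (69.9%, against 58.4%), 25 higher and 33 lower in HSL (all genes 27.8% and 30.6%). In AP against basal 47 were called (56.6%, against 44.7%), 26 higher and 21 lower in AP (all genes 21.5% and 23.1%). Protein-coding genes taken by the same level rule were called at 47.9%, 65.6% and 51.5%. A gene kept for a high level in 1 population need not be high elsewhere, so nothing is read from these shares. The median absolute log2 fold change was 1.24 in HSL against AP for members, with 0.54 for all genes and 0.48 for coding genes by the same rule; it was 1.61 in HSL against basal, with 0.78 and 0.71, and 1.03 in AP against basal, with 0.58 and 0.51. None of the 3 comparisons was called for 14 members, against 29.3% of all genes; with the replicate block these were 7 members and 19.4% of all genes.

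**Figure D1:**
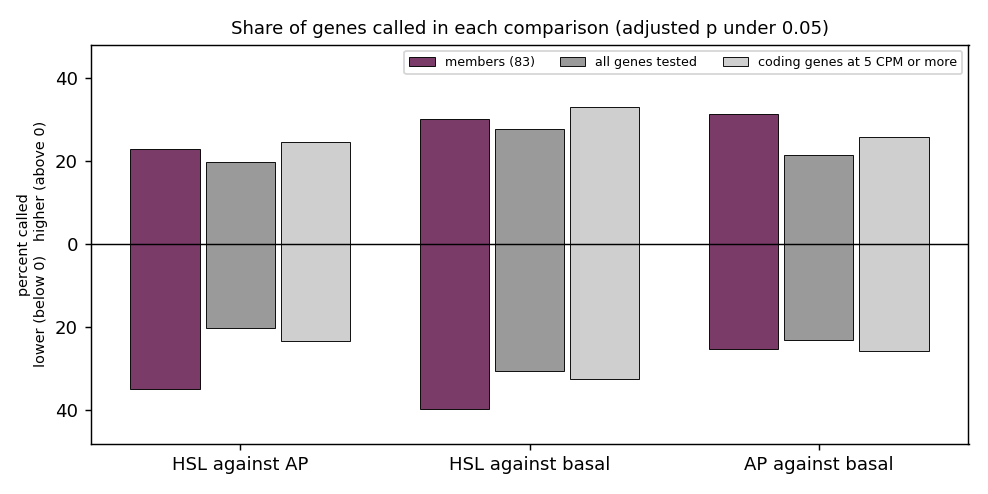
Percent of genes called higher (above 0) or lower (below 0) in the first-named population, at an adjusted p under 0.05, for the 83 lincRNAs, all 16471 genes tested and 11026 protein-coding genes taken by the same level rule. In HSL against AP 34.9% of the lincRNAs were lower and 22.9% higher.

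Of the 83, 22 stood above both other populations with no overlap between its 6 libraries and the other 12 and with both comparisons called. There were 7 in HSL (5.95% of all genes tested), 3 in AP (2.94%) and 12 in basal cells (11.2%), together 26.5% of members, against 20.1% of all genes and 24.4% of coding genes by the same rule. Without sample 1 the counts were 14 in HSL, 9 in AP and 18 in basal cells (the other leave-outs gave 6 to 8, 3 to 4 and 12). The 19 added included AW112010 and A830008E24Rik in HSL, Pinc and Neat1 in AP, and 1200007C13Rik in basal cells. Calls over all genes also rose without sample 1, from 6571 to 7898 in HSL against AP. Genes free of overlap were not counted over all genes in the leave-outs, so nothing is read from the rise.

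**Figure D2:**
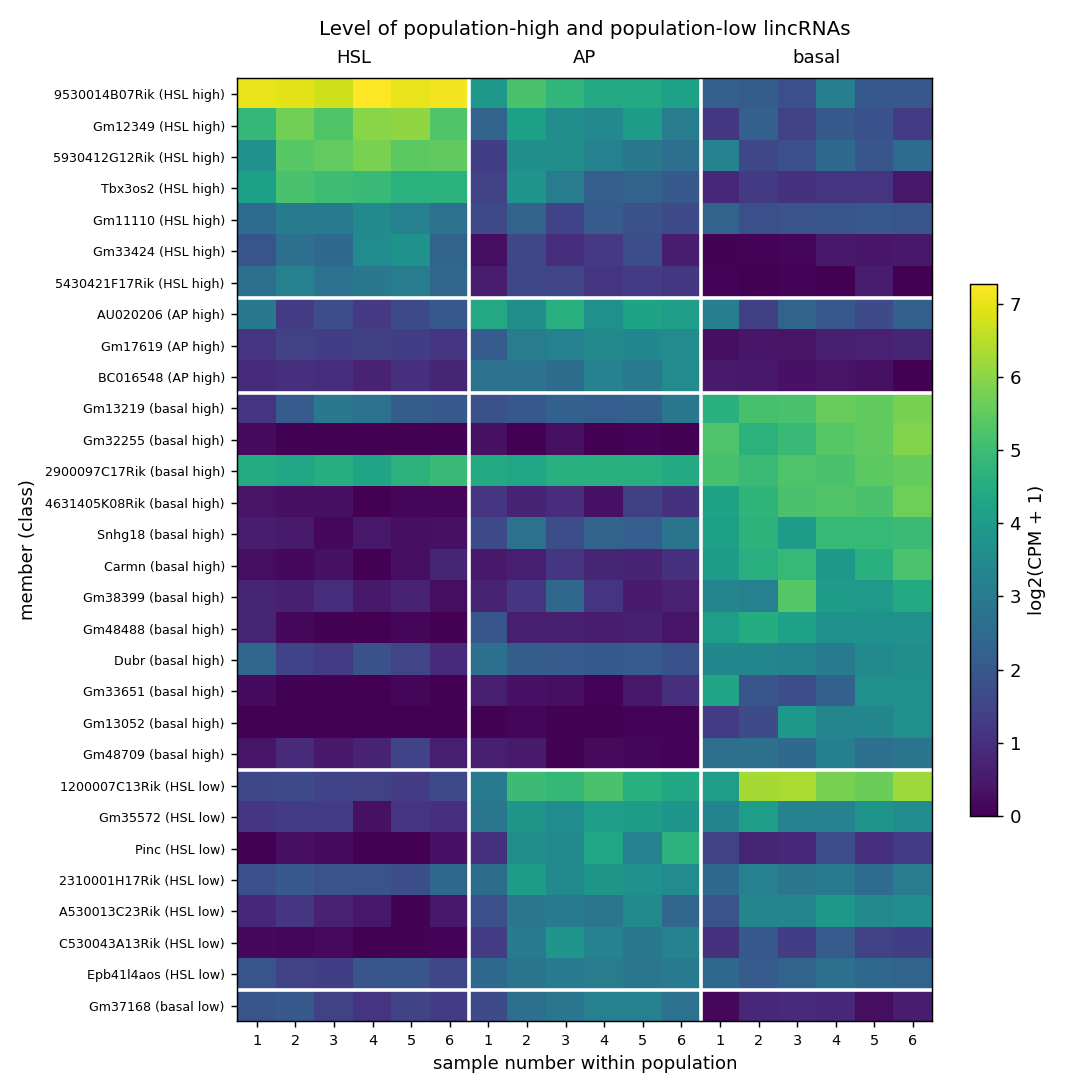
Level of each library as log2(CPM + 1), colour, for the 22 members high in 1 population and 8 others low in 1 population, with no overlap between libraries; columns are samples 1 to 6 of HSL, AP and basal. Gm32255 and Gm13052 are near 0 in every HSL and AP library, while 2900097C17Rik is at 18 CPM or more in every library.

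The HSL member with the highest level was 9530014B07Rik (chr13:53635894-53639193, 3 exons). It had a lowest, median and highest level of 106, 131 and 154 CPM in HSL, 13.6, 20.6 and 35.7 CPM in AP and 2.41, 3.23 and 7.59 CPM in basal libraries. The 3 populations did not overlap, and each step was called: 2.55 ± 0.26 for HSL against AP (adjusted p = 1.02e-06), 5.09 ± 0.30 for HSL against basal (1.63e-10) and 2.54 ± 0.27 for AP against basal (3.87e-07). Msx2, a homeobox factor of epithelial appendages and its nearest tested coding gene 162820 bases away, showed a like gradation at 122 ± 20.7 CPM in HSL, 29.5 ± 10.9 CPM in AP and 3.77 ± 1.23 CPM in basal libraries.

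Tbx3os2 lies 371 bases from Tbx3, a T-box factor needed for mammary development, at chr5:119685095-119691218. It had 16.3, 26.5 and 35.6 CPM as lowest, median and highest in HSL, 1.73, 3.82 and 12.8 CPM in AP and 0.388, 1.08 and 1.34 CPM in basal libraries. Again no population overlapped another (2.29 ± 0.40 for HSL against AP, adjusted p = 0.000192, and 4.76 ± 0.45 for HSL against basal, adjusted p = 6.07e-08). Tbx3 was at 342 ± 43.1 CPM in HSL, 91.2 ± 29.8 CPM in AP and 103 ± 23.4 CPM in basal libraries. The mean of Tbx3 was similar in AP and basal libraries, whereas Tbx3os2 was higher in AP than in basal libraries by 2.47 ± 0.41 (adjusted p = 7.64e-05).

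5930412G12Rik, named Fzd10os by RefSeq, starts 151 bases from the Wnt receptor gene Fzd10 on the opposite strand. It had 11.8, 43 and 55.1 CPM as lowest, median and highest in HSL, 1.55, 7.36 and 11.2 CPM in AP and 2.01, 3.74 and 8.38 CPM in basal libraries. AP and basal overlapped, and the HSL library of sample 1 was barely above the highest AP library. Fzd10 reached 45.1 ± 15.1 CPM in HSL, 8.14 ± 3.5 CPM in AP and 21.2 ± 19.3 CPM in basal libraries. The other HSL members were Gm12349 (47.3 ± 14.9 CPM in HSL, 10.7 ± 4.73 CPM in AP, 2.3 ± 0.989 CPM in basal), Gm33424 (6.53 ± 3.78, 1.2 ± 0.83 and 0.223 ± 0.196 CPM), 5430421F17Rik (6.18 ± 1.41, 1.37 ± 0.551 and 0.0943 ± 0.186 CPM) and Gm11110 (7.08 ± 1.84, 2.65 ± 0.919 and 2.9 ± 0.557 CPM). In 6 of the 7 the next highest population was AP. The call of 5430421F17Rik for HSL against AP (2.17 ± 0.70, adjusted p = 0.0184) was lost without sample 3 (0.051). Gm12349 lies 21800 bases from Krt42, a keratin gene at 0.555 ± 0.281 CPM in HSL, 0.443 ± 0.163 CPM in AP and 42.8 ± 23.1 CPM in basal libraries, so the highest population of the lincRNA and of its neighbour differed.

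AW112010 and A830008E24Rik, the most abundant lincRNAs with their highest mean in HSL, were in the HSL group only when sample 1 was left out. AW112010, induced by inflammatory stimuli in mouse immune cells, had 155, 873 and 1324 CPM as lowest, median and highest in HSL, 23, 175 and 247 CPM in AP and 9.7, 27.3 and 58.2 CPM in basal libraries. The lowest value of each population was that of sample 1, at 155 CPM in HSL, 23 CPM in AP and 9.7 CPM in basal. HSL was above AP by 2.36 ± 0.54 (adjusted p = 0.00186) and above basal by 4.77 ± 0.60 (adjusted p = 1.98e-06). Per kilobase of annotated exon it was the highest of the 83, at 1044 CPM in HSL, 203 CPM in AP and 38.3 CPM in basal libraries. That scale uses 804 bases of exon, while the deposited gene width was 2950 bases. By the deposited width Gm26917 ranked above it. Summed leukocyte markers ran from 13.2 to 726 CPM in HSL, 19 to 232 CPM in AP and 214 to 993 CPM in basal libraries, and their part in the level was not tested.

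A830008E24Rik lies 127874 bases from Glul, which encodes glutamine synthetase. Its lowest, median and highest levels were 12.7, 218 and 309 CPM in HSL, 2.38, 38.4 and 70.7 CPM in AP and 0.358, 6.21 and 15.7 CPM in basal libraries. Sample 1 again gave the lowest library of each population, and without it the mean was 240 ± 42.2 CPM in HSL, 45.8 ± 17.5 CPM in AP and 7.8 ± 4.65 CPM in basal libraries (SD, n = 5). Its call for HSL against AP (2.39 ± 0.75, adjusted p = 0.0161) did not hold without sample 5 (adjusted p = 0.0571) or sample 6 (0.0784). Glul had 239 CPM in the HSL library of sample 1, with 1539 to 3201 CPM in the other 5.

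Sample 1 gave the lowest library in each of the 3 populations for 16 members, against 0 or 1 member for each of the other 5 samples. The 16 were AW112010, A830008E24Rik, Gm14005, Gm12349, Gm13219, Fam120aos, Gm32014, Gm7932, 1700030N03Rik, Gm43672, Gm48664, Gm20744, Gm17619, Gm33424, Gm34609 and D730003I15Rik. Sample 1 gave the highest library in each population for 3 members, Gm10032, 4933404O12Rik and Lockd. No such counts over all genes are given here, so nothing is read from these numbers. Several of the 16 lie beside HSL genes that were low in sample 1 as well. Aoc1, encoding the diamine oxidase and 6813 bases from Gm7932, had 5.98 CPM in the HSL library of sample 1 and 612 to 2383 CPM in the other 5. Nrxn3, a neurexin 16057 bases from Gm48664, had 54 CPM in that library and 420 to 761 CPM in the others. Trpc6, a cation channel whose span overlaps Gm32014, had 11.1 CPM there and 82.6 to 139 CPM in the others. Some neighbours of the 16 went the other way. Bcl2l11, beside Gm14005, had 77.8 CPM in the HSL library of sample 1 and 39.2 to 64.7 CPM in the others. Zfp217, the nearest tested coding gene of Gm17619, had 14.4 CPM there and 3.22 to 7.26 CPM in the others. The cause was not tested.

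Gm14005, which RefSeq names Morrbid, lies 15772 bases from Bcl2l11. In mouse myeloid cells Morrbid is known to hold down Bcl2l11, which encodes the pro-apoptotic protein Bim. Gm14005 stood at 66.3 ± 42.5 CPM in HSL, 38.9 ± 25.6 CPM in AP and 11.5 ± 4.02 CPM in basal libraries, and was called higher in HSL than basal (2.53 ± 0.54, adjusted p = 0.000552) and in AP than basal (1.76 ± 0.52, adjusted p = 0.0103; 0.0537 without sample 2), not in HSL against AP (adjusted p = 0.248). Bcl2l11 was at 56.3 ± 13.5 CPM in HSL, 192 ± 50.5 CPM in AP and 108 ± 37 CPM in basal libraries, so its order of populations was different.

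**Figure D3:**
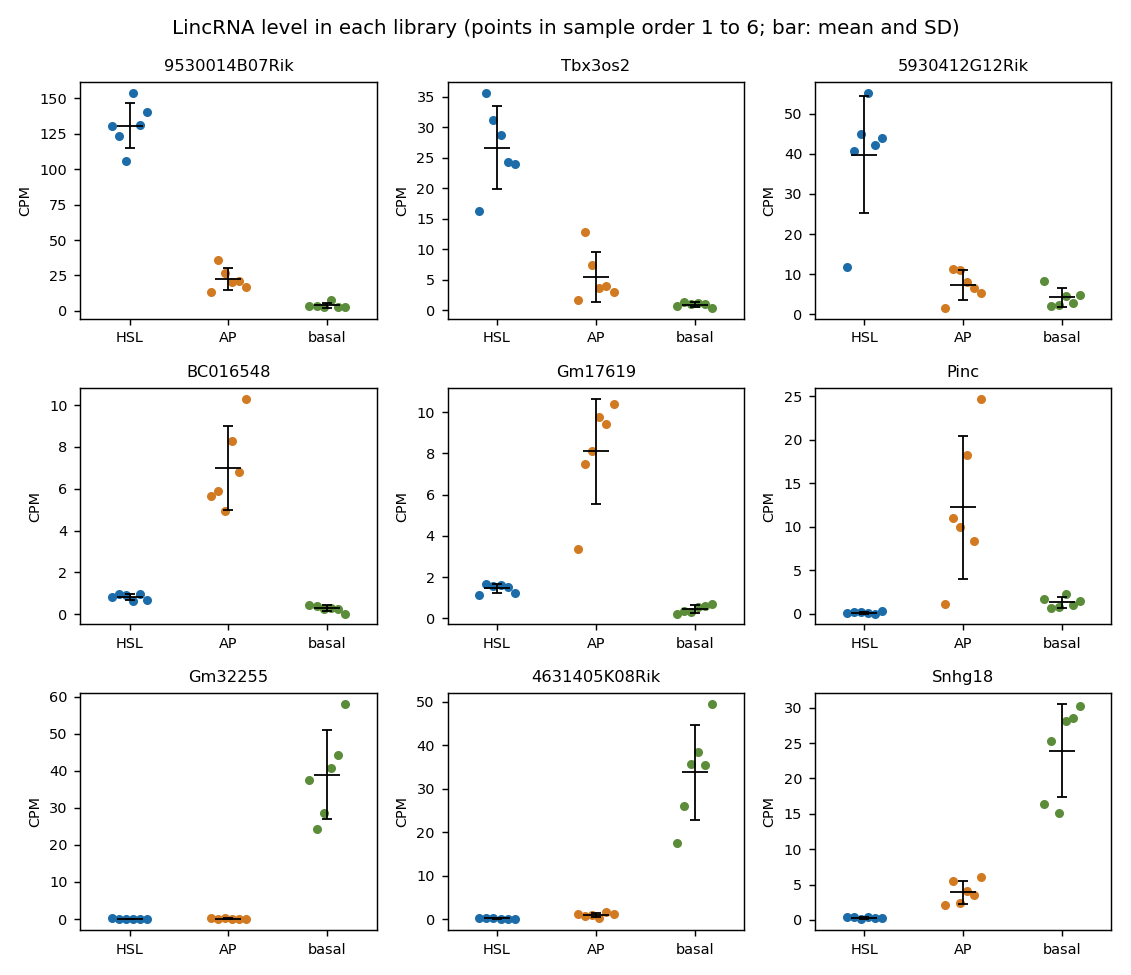
CPM in each library for 9 members, by population (HSL, AP, basal), points in sample order and bars at the mean ± SD (n = 6). The top row holds members high in HSL, the middle row members highest in AP and the bottom row members high in basal cells; the low HSL point of 5930412G12Rik at 11.8 CPM and the low AP point of Pinc at 1.05 CPM are both from sample 1.

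The AP group held BC016548, Gm17619 and AU020206. BC016548, 22644 bases from Elf5 at chr2:103377643-103389044, had 0.617, 0.879 and 0.992 CPM as lowest, median and highest in HSL, 4.96, 6.33 and 10.3 CPM in AP and 0.0353, 0.287 and 0.426 CPM in basal libraries. No population overlapped another. HSL was lower than AP by -3.05 ± 0.35 (adjusted p = 3.04e-06), AP above basal by 4.59 ± 0.38 (1.91e-08), and HSL above basal by 1.54 ± 0.35 (0.000973). Elf5, the transcription factor of alveolar fate, followed the same order at 23.9 ± 7.44 CPM in HSL, 190 ± 24.8 CPM in AP and 4.11 ± 1.57 CPM in basal libraries.

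Gm17619, whose promoter window is shown above, had 1.15, 1.54 and 1.64 CPM in HSL, 3.34, 8.78 and 10.4 CPM in AP and 0.224, 0.443 and 0.671 CPM in basal libraries as lowest, median and highest. It too separated all 3 populations (-2.48 ± 0.30 for HSL against AP, adjusted p = 4.59e-06, and 4.18 ± 0.33 for AP against basal, adjusted p = 7.84e-09). Its nearest tested gene, Zfp217, 44346 bases away, was at 7.34 ± 3.76 CPM in HSL, 9.17 ± 3.26 CPM in AP and 5.47 ± 1.32 CPM in basal libraries. AU020206 was the most abundant of the 3, at 2.81 ± 1.99 CPM in HSL, 16.5 ± 4.73 CPM in AP and 3.73 ± 2.16 CPM in basal libraries, and HSL and basal overlapped (adjusted p = 0.407).

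Pinc, known to be induced by pregnancy in the rodent gland and to persist after it, was measured in AP libraries of these nulliparous mice. Its lowest, median and highest levels were 0, 0.102 and 0.288 CPM in HSL, 1.05, 10.5 and 24.7 CPM in AP and 0.691, 1.23 and 2.29 CPM in basal libraries. HSL was below both other populations without overlap, while the AP library of sample 1 lay within the basal range. HSL was lower than AP by -6.70 ± 0.80 (adjusted p = 4.28e-06), from 25 reads summed over 6 HSL libraries and 3678 over 6 AP libraries, and AP was above basal by 3.21 ± 0.65 (adjusted p = 0.00055). Of its span 52.1% is shared with D530049I02Rik and Gm27315, which makes its level uncertain. C530043A13Rik, 114525 bases from Pinc on the same strand, had nearly the same profile at 0.0682 ± 0.0549 CPM in HSL, 7.45 ± 3.73 CPM in AP and 1.99 ± 0.883 CPM in basal libraries (-6.67 ± 0.64 for HSL against AP, adjusted p = 4.41e-07). Tns1, the nearest tested coding gene of both, was highest in basal libraries at 130 ± 43.7 CPM, with 2.75 ± 1.37 CPM in HSL and 7.66 ± 2.78 CPM in AP.

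HSL was lower than both other populations with no overlap for 8 members (6.24% of all genes), Pinc, C530043A13Rik, 5 described next and Snhg18, which was also high in basal cells. Fibroblast marker sums were lower in HSL too, as given above, and their part was not tested. A pair of the 5 lies on the same side of Cebpb, which encodes the transcription factor C/EBP beta. A530013C23Rik starts 759 bases from it and had 0.565 ± 0.405 CPM in HSL, 6.03 ± 2.55 CPM in AP and 9.09 ± 3.62 CPM in basal libraries. The farther 1200007C13Rik, 98520 bases from A530013C23Rik, had 1.82 ± 0.269 CPM in HSL, 24 ± 9.99 CPM in AP and 58.1 ± 24.5 CPM in basal libraries. Cebpb itself was at 217 ± 78.8 CPM in HSL, 2037 ± 459 CPM in AP and 2612 ± 565 CPM in basal libraries. The nearest tested coding gene of 1200007C13Rik is Ptpn1, 98411 bases away. Ptpn1 was highest in HSL, at 351 ± 49.7 CPM, with 167 ± 29.6 CPM in AP and 196 ± 35.4 CPM in basal libraries. Against AP, HSL was lower by -3.39 ± 0.54 for A530013C23Rik (adjusted p = 7.83e-05) and by -3.72 ± 0.39 for 1200007C13Rik (adjusted p = 1.02e-06). The remaining members were Gm35572 (-3.51 ± 0.34), 2310001H17Rik (-1.90 ± 0.25) and Epb41l4aos (-1.48 ± 0.20). Basal was lower than both others with no overlap for 6 members (7.38% of all genes), of which 9530014B07Rik, Tbx3os2 and Gm12349 were also high in HSL and Gm17619 and BC016548 high in AP. The sixth, Gm37168, was at 1.98 ± 0.764 CPM in HSL, 5.89 ± 2.16 CPM in AP and 0.527 ± 0.317 CPM in basal libraries.

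Basal members included the largest differences of the 3 groups. The smaller of the 2 log2 distances to the other populations had a median of 3.88 over the 12, with 2.29 over the 7 HSL members and 2.48 over the 3 AP members. These distances come from the values that chose the groups. No like medians over all genes are given, so nothing is read from their order. Gm32255, a single-exon transcript at chr10:67496359-67497707, had 0, 0.0121 and 0.159 CPM as lowest, median and highest in HSL, 0, 0.031 and 0.252 CPM in AP and 24.3, 39.3 and 58.1 CPM in basal libraries. In reads this was 11 over 6 HSL libraries, 28 over 6 AP libraries and 11765 over 6 basal libraries. HSL was lower than basal by -9.71 ± 0.85 (adjusted p = 2.36e-08) and AP by -8.67 ± 0.79 (adjusted p = 6.0e-08). Its neighbour Egr2, an early-response zinc finger factor 37768 bases away, was also highest in basal cells, at 12.5 ± 9.59 CPM in HSL, 39.2 ± 9.18 CPM in AP and 522 ± 147 CPM in basal libraries.

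The miR-205 host 4631405K08Rik had 0, 0.15 and 0.3 CPM as lowest, median and highest in HSL, 0.284, 1 and 1.58 CPM in AP and 17.5, 35.6 and 49.5 CPM in basal libraries. The basal libraries were far above the others, and HSL was lower than AP by -2.59 ± 0.52 (adjusted p = 0.000666) although single libraries overlapped. Against basal, HSL was lower by -7.75 ± 0.59 (adjusted p = 4.35e-09) and AP by -5.16 ± 0.51 (adjusted p = 1.72e-07). Carmn, the host of the smooth muscle microRNAs miR-143 and miR-145, was at 0.248 ± 0.239 CPM in HSL, 0.759 ± 0.319 CPM in AP and 23.3 ± 8.36 CPM in basal libraries (-6.64 ± 0.61 for HSL against basal, adjusted p = 4.03e-08, and -4.94 ± 0.55 for AP against basal, adjusted p = 7.18e-07). The 6 libraries of basal cells did not overlap with the other 12 for either host.

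Snhg18, host of the small nucleolar RNA Snord123, starts 148 bases from Sema5a, a semaphorin gene, on the opposite strand. It had 0.113, 0.322 and 0.459 CPM in HSL, 2.05, 3.79 and 6.02 CPM in AP and 15.1, 26.7 and 30.3 CPM in basal libraries as lowest, median and highest. Each step was free of overlap (-3.61 ± 0.36 for HSL against AP, adjusted p = 6.25e-07, and -2.61 ± 0.32 for AP against basal, adjusted p = 2.9e-06). Sema5a followed the same order at 0.933 ± 0.583 CPM in HSL, 10.1 ± 2.65 CPM in AP and 107 ± 37.6 CPM in basal libraries.

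Gm48488 shares 11.1% of its span with Gas1, a growth arrest gene, and was at 0.147 ± 0.26 CPM in HSL, 0.875 ± 0.956 CPM in AP and 15.1 ± 3.79 CPM in basal libraries. Gas1 was at 3.74 ± 4.65 CPM in HSL, 24.7 ± 17.3 CPM in AP and 945 ± 336 CPM in basal libraries, and since the libraries do not mark the strand, reads of the shared part cannot be told apart. Gm48709, 5292 bases from the matrix gene Ltbp2, was at 0.753 ± 0.525 CPM in HSL, 0.207 ± 0.214 CPM in AP and 5.71 ± 1.17 CPM in basal libraries, with Ltbp2 at 12.4 ± 10.1 CPM, 95.6 ± 8.26 CPM and 1732 ± 440 CPM. Gm13052 had 1 read over 6 HSL libraries, 12 over 6 AP libraries and 2329 over 6 basal libraries, so no fold is given against HSL, and AP was lower than basal by -7.53 ± 0.73 (adjusted p = 1.36e-07). Gm33651 reached 8.33 ± 6.38 CPM, Gm38399 17.8 ± 11.8 CPM, Gm13219 39.8 ± 10.9 CPM and Dubr 9.25 ± 1.5 CPM in basal libraries. Gm13219 lies 409402 bases from Gata3, a luminal factor that was highest in HSL at 419 ± 118 CPM, with 215 ± 59.1 CPM in AP and 173 ± 40.9 CPM in basal libraries.

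The smallest difference in the basal group was that of 2900097C17Rik, the Norad transcript that binds Pumilio proteins. It stood at 22.2 ± 4.02 CPM in HSL, 21.5 ± 1.73 CPM in AP and 37.5 ± 5.62 CPM in basal libraries. No basal library overlapped with the others (-0.76 ± 0.13 for HSL against basal, adjusted p = 6.4e-05, and -0.81 ± 0.13 for AP against basal, adjusted p = 5.22e-05). Endothelial marker sums were 14.1 to 34 CPM in HSL, 19.5 to 62.3 CPM in AP and 49.8 to 150 CPM in basal libraries, and leukocyte sums are given above. Their part in the basal lincRNAs was not tested.

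Some members had close means in the 3 populations. 5031425E22Rik was at 14.2 ± 3.94 CPM in HSL, 14 ± 3.8 CPM in AP and 14.2 ± 3.06 CPM in basal libraries. 2310008N11Rik stood at 5.91 ± 0.902 CPM in HSL, 6.28 ± 1.18 CPM in AP and 6.7 ± 1.34 CPM in basal libraries, and 2010320M18Rik at 11.6 ± 2.99 CPM, 9.3 ± 2.44 CPM and 11.1 ± 3 CPM. None of their comparisons was called (adjusted p from 0.265 to 0.976). A p above the threshold does not show equal levels. Gm26904 was within the same narrow range, at 8.12 ± 0.903 CPM in HSL, 8.33 ± 0.694 CPM in AP and 10.3 ± 1.52 CPM in basal libraries, and HSL was below basal by -0.34 ± 0.14 (adjusted p = 0.0377; 0.102, 0.144 and 0.0725 without sample 3, 5 or 6).

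From a list of 93 known long non-coding RNA symbols, 74 were in the tables, 46 were tested and 13 were members. Matching was by symbol alone. Morrbid, the RefSeq name of the member Gm14005, therefore went unmatched. Some RNAs are listed under several names, such as Cyrano and Norad, so the counts are of symbols. Of the 46 tested, 3 were higher and 17 lower in HSL than AP, 4 higher and 23 lower in HSL than basal, and 5 higher and 13 lower in AP than basal. The 3 higher in HSL than AP, Casc4, Snhg11 and Platr17, all carry the protein-coding type in M21. Snhg11 and Platr17 were also among the 4 higher in HSL than basal, and Snhg11 among the 5 higher in AP than basal. The list was drawn up with earlier results of these data known, and these counts are read beside the shares of all genes given above. The miR-degrading transcript Cyrano (1700020I14Rik, named Oip5os1 by RefSeq) stood at 61.3 ± 7.69 CPM in HSL, 56.4 ± 5.07 CPM in AP and 76 ± 12.2 CPM in basal libraries. Pvt1, beside Myc, was at 43.5 ± 13.4 CPM in HSL, 27.8 ± 19.4 CPM in AP and 51.1 ± 22.9 CPM in basal libraries, and AP against basal was not called (-0.88 ± 0.36, adjusted p = 0.0535). With the replicate block AP was lower than basal (-1.003, adjusted p = 0.000909) and HSL higher than AP (0.79, 0.00497). Lockd, beside the cell cycle inhibitor gene Cdkn1b, was at 1.19 ± 1.02 CPM in HSL, 6.45 ± 3.96 CPM in AP and 2.89 ± 1.91 CPM in basal libraries, lower in HSL than AP by -2.42 ± 0.55 (adjusted p = 0.00193). With the replicate block Lockd was also higher in AP than basal (1.21, adjusted p = 0.00359) and lower in HSL than basal (-1.26, 0.00277). Snhg6, host of Snord87, had 10.3 ± 0.752 CPM in HSL, 7.47 ± 1.93 CPM in AP and 7.93 ± 2.1 CPM in basal libraries, and Lncpint, a p53 target, 6.17 ± 3.75 CPM, 6.53 ± 6.2 CPM and 10.1 ± 8.97 CPM, with no call for either, except that Snhg6 was called higher in HSL than AP with the replicate block (0.51, adjusted p = 0.0317). Among the symbols found, 12 gene entries were listed at 0 in all libraries, Xist and Kcnq1ot1 among them. Dlx6os1 has such an entry and another that was above 0. The span of each of the 12 is shared with another gene, from 4.55% for Hotair to 100% for Xist and Kcnq1ot1. Zeros of wholly shared spans do not show absence. Whether sharing accounts for the zeros of partly shared spans was not tested, so none of these is read as absence.

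The members were then set beside their nearest tested protein-coding gene, a property that the rule did not use. The highest population was the same for 44 of 83 pairs (53%). Among protein-coding genes and their own nearest tested coding neighbour it was the same for 5861 of 13937 (42.1%), and the difference between these shares was not tested. The share was 7 of 13 where spans overlapped, 29 of 58 up to 100 kb and 8 of 12 beyond 100 kb. Of the 22 members high in 1 population, 14 had a neighbour highest in the same one, and 9 a neighbour that was itself high there without overlap. No like count was made for protein-coding genes high in 1 population, so nothing is read from these. Across the 83 members the Spearman correlation of log2 fold changes with those of the neighbour was 0.49 in HSL against AP, 0.35 in HSL against basal and 0.26 in AP against basal, with 0.21, 0.21 and 0.19 across protein-coding pairs. These describe genes measured in the same libraries, and some members share a neighbour. Where lincRNA and neighbour were both called, the direction was the same in 24 of 29 pairs, 31 of 47 and 18 of 28. The same count over protein-coding pairs was not made, so nothing is read from these either.

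**Figure D4:**
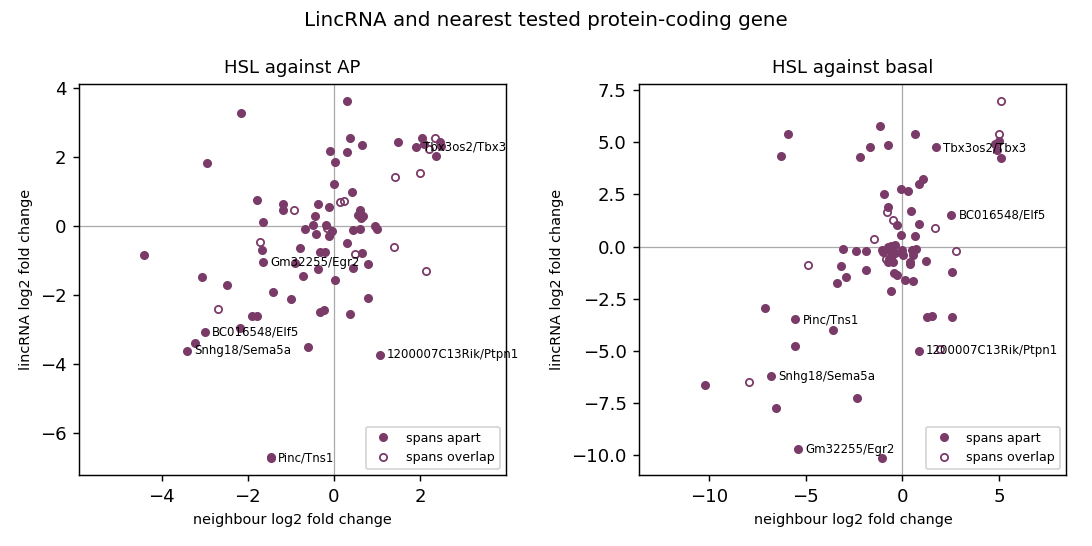
Log2 fold change of each lincRNA (vertical) against that of its nearest tested protein-coding gene (horizontal), for HSL against AP and HSL against basal; open points are pairs whose spans overlap. BC016548 and Elf5, and Snhg18 and Sema5a, fall together to the lower left in HSL against AP, while 1200007C13Rik and its nearest gene Ptpn1 lie on opposite sides of 0. The lowest point of HSL against basal is Gm13052, whose fitted fold rests on 1 HSL read.

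In 12 members the annotated start lay within 1000 bases of the start of a tested coding gene on the opposite strand. The highest population was the same in 7 of these pairs, 5930412G12Rik with Fzd10, Fam120aos with Fam120a, Snhg18 with Sema5a, Gm48488 with Gas1, 5033430I15Rik with Atxn1, Gm20554 with Irx2 and 9330136K24Rik with Zfp52. It differed in the other 5, and no like count was made over coding pairs. Lppos was lowest in basal libraries, at 9.32 ± 1.88 CPM in HSL, 5.62 ± 2 CPM in AP and 2.98 ± 0.567 CPM in basal libraries. Lpp was highest there, at 317 ± 70.2 CPM in HSL, 269 ± 123 CPM in AP and 543 ± 190 CPM in basal libraries. Both had a higher mean in HSL than in AP, a comparison not called for Lpp (adjusted p = 0.507). Lppos was higher in HSL than basal by 1.64 ± 0.22 (adjusted p = 4.86e-06). Its 81 bases from the Lpp start and the 4.15% of shared span make some of its reads uncertain.

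Some members had most of their reads in 1 or 2 samples. Gm10032 had 129 CPM in the HSL library of sample 1 and 0.412 to 1.07 CPM in the other 5 HSL libraries; the AP library of sample 1 had 12.1 CPM and its basal library 2.91 CPM. H19, an imprinted transcript of fetal tissue, had 27.6 CPM in the HSL library of sample 1 and at most 0.44 CPM in the other 5. Gm30211 had 21.2 CPM in the HSL library of sample 1, 40 and 61.3 CPM in the AP libraries of samples 1 and 2, and 3.23 CPM in the basal library of sample 1, with 1.98 CPM or less in the other 14 libraries. Without its highest library 8 members fell below the threshold, Gm10032 and H19 among them and Gm30211 not.

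The span of Gm30211 holds the immunoglobulin kappa constant gene Igkc, listed at 0, and kappa joining segments. Jchain, the joining chain of secreted antibody, had 68.6 CPM in the HSL library of sample 1 and 149 and 182 CPM in the AP libraries of samples 1 and 2, and at most 7.14 CPM in the other 15. Ighm had 34.6 CPM in that HSL library, 83.7 and 37.1 CPM in those AP libraries and 40.9 CPM in the basal library of sample 1. Cd79a, a B-cell receptor gene, was highest in the basal library of sample 1 at 11.3 CPM, with 2.07 CPM or less in the other 17. These genes were looked up after the values of Gm30211 had been seen, and their part in it was not tested.

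**Figure D5:**
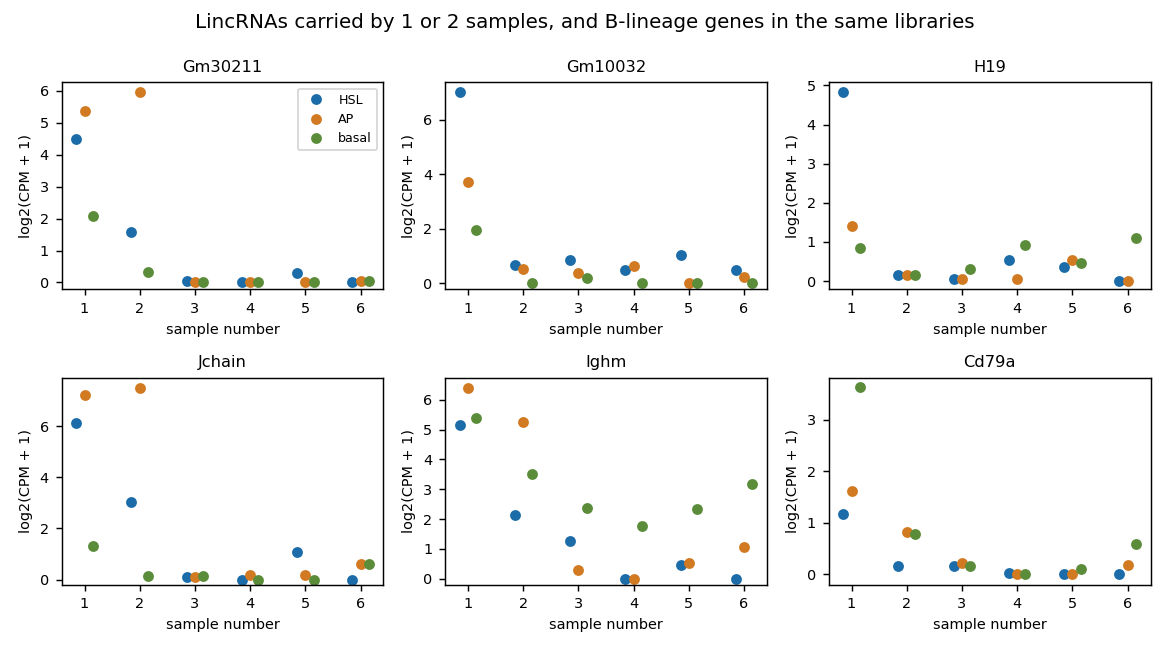
Level as log2(CPM + 1) against sample number for Gm30211, Gm10032 and H19, and for 3 B-lineage genes, with HSL, AP and basal libraries as separate points. Gm30211 and Jchain are both high in samples 1 and 2, where the AP libraries hold 40 and 61.3 CPM of Gm30211.

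Span overlap limits what these counts measure. Of the 83 members 40 shared no base with another gene, 42 shared part and 1, 4930562F07Rik, lay wholly within 4930523C07Rik; 9 shared more than 50% of their span. Among all lincRNA genes 519 of 557 with the whole span shared were at 0 in every library (93.2%), against 189 of 1010 with part shared (18.7%) and 1576 of 3442 with none (45.8%). Coding genes that overlap long lincRNA spans, wholly or in part, were often at 0. Gm26561, Gm26551, Gm26904 and Gm26694 overlap 50 protein-coding genes. Of these, 44 were at 0 in all libraries, among them Myl12a and Myl12b in Gm26561 and Srf in Gm26904. Gm26561 itself was high, at 352 ± 258 CPM in HSL, 219 ± 157 CPM in AP and 420 ± 195 CPM in basal libraries; how reads on its 72.6% of shared span were counted is not stated in the labels. 4930562F07Rik stood at 111 ± 53 CPM in HSL, 56 ± 17.9 CPM in AP and 121 ± 45.5 CPM in basal libraries and 1300002E11Rik, sharing 99.8% with Map3k13, at 15 ± 1.92 CPM, 22.9 ± 2.43 CPM and 17.3 ± 2.48 CPM. The gene width in the tables equalled the M21 span for 66 members and differed for 17, so the annotation used for counting was not identical to M21.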

How the data were processed

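RNA from sorted mammary cells was converted to cDNA with Smart-Seq v4 from 2 ng of total RNA, and libraries were made with Nextera XT from 150 pg of cDNA, per the labels' protocols; such libraries do not mark the strand. The authors deposited whole-number counts per gene, per the file headers, beside RPKM values, which the authors deposited in the same files and which were not used in any test. The submitters' processing notes list GRCm38 as genome build. Which aligner and counter were used is not given in the sources used here. The deposited gene width was compared with the annotated span. Of 52636 identifiers 52489 matched GENCODE M21; the other 147 (0.00303 to 0.00677% of a library's counts) were left out.

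Counts were fitted with edgeR 4.0.16 in R 4.3.3: filterByExpr by population with a minimum count of 10 (16471 genes, all 83 members among them), TMM factors, robust quasi-likelihood with 1 mean per population over 18 libraries, F test, Benjamini-Hochberg adjustment over all genes tested, called under 0.05. Standard errors are the log2 fold change over the square root of F and approximate. Neighbours are the nearest tested protein-coding gene by span. Sequences are from RefSeq, GRCm38.p6. Tables were joined in Python 3.11.15 with pandas 2.3.3. The fit was tested on simulated data.

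The members, the gene lists and the alternatives were chosen with earlier results of these data known. By rule, members are named for the 6 highest levels, for a population class, for the smallest spread, from the known list and at the threshold; the rest (for sample 1, a start near a coding gene, 1 library or a neighbour) were picked with their values in view. The titles give a sample number to 1 library of each population. Deviations from population means correlated with r from 0.117 to 0.608 over the 18 pairs with the same number (median 0.259). Over other pairs the median was -0.0706 and the highest 0.213. Libraries with the same number were thus more alike as a set, though the ranges overlapped. The labels do not say that each number is 1 animal, and p-values measure the spread between these samples. Alternatives were RLE factors, total counts, DESeq2 1.42.0, no filter, the replicate block, samples 1 to 3 or 4 to 6, and each sample left out.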

Additional observations from a re-analysis of the deposited data

Results flagged for a closer look

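Among 103 sets of 6 libraries examined for the members described, 8 held a library far from the other 5, by the ratio of its gap to the range against a critical value of 0.625; chance gives about 1 in 20. Gm26561 was at 828 CPM in the HSL library of sample 2 and at 151 to 395 CPM in the other HSL libraries. A830008E24Rik was at 12.7 CPM in the HSL library of sample 1 and at 203 to 309 CPM in the others. 5930412G12Rik was at 11.8 CPM in the HSL library of sample 1 and at 40.6 to 55.1 CPM in the others. Gm32014 was at 7.62 CPM in the HSL library of sample 1 and at 29.6 to 42.1 CPM in the others. Gm10032 was at 129 CPM in the HSL library of sample 1 and at 0.412 to 1.07 CPM in the others. Lppos was at 9.43 CPM in the AP library of sample 2 and at 4.03 to 5.99 CPM in the others. Pvt1 was at 65 CPM in the AP library of sample 3 and at 13.4 to 32.4 CPM in the others. Lncpint was at 27.9 CPM in the basal library of sample 3 and at 3.2 to 8.79 CPM in the others. Of the 8 libraries, 4 belong to sample 1. The 8 are not a full list of such gaps. Sample 1 was also far above the other 5 libraries for H19 and Gm30211 in HSL and for Gm10032 in AP, as given above. The mean of each of these sets was under 5 CPM, and they are not among the 8. No population difference was called for Gm26561, Pvt1 or Lncpint without the replicate block, nor for Lncpint with it.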

How the results depend on the processing

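No call of a member described here changed direction under any alternative run. Scaling by RLE factors, total counts or DESeq2, leaving out the filter, and the replicate block kept each count of calls within 1.5 times; the block kept all 48, 58 and 47 calls of HSL against AP, HSL against basal and AP against basal and added 10, 7 and 17; members with no call numbered 7 in place of 14. With samples 1 to 3 only, members called higher numbered 2 and lower 12 in HSL against AP, higher 15 in HSL against basal, and higher 11 and lower 12 in AP against basal. Calls over all genes fell too. They numbered 1491, 5674 and 3718 in these comparisons, in place of 6571, 9621 and 7356. In HSL against AP 29.7% of them were higher. Leaving out 1 sample gave 10 to 24 members higher in HSL than AP, with 11 without sample 4, 10 without sample 5 and 11 without sample 6; the calls of A830008E24Rik and Neat1 are among those lost in some of these. Without 1 sample the members high without overlap numbered 6 to 14 in HSL, 3 to 9 in AP and 12 to 18 in basal cells, the highest each without sample 1. These leave-outs were not counted over all genes. A threshold of 10 CPM left 51 members and 2 CPM gave 164. Total counts moved the median of all genes from -0.011 to -0.185 in HSL against AP and from -0.001 to 0.136 in AP against basal, and DESeq2 gave -0.126 in HSL against basal. The share of calls higher over all genes was then 35.6% in place of 49.6% for HSL against AP, with 14 members higher and 32 lower in place of 19 and 29. Of 109 calls of the members described, 109 were kept with RLE factors, 106 with total counts, 107 without the filter, 67 with samples 1 to 3 only, 101 with samples 4 to 6 only and 96 to 109 without 1 sample. The cause of these changes was not tested. Read sums of 1 to 28 over 6 libraries, as for Gm13052 and Gm32255 in HSL and AP, leave those levels with a wide counting error.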
